A study of Mus musculus with 4 samples.

Results

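H3K9ac, the acetylation of lysine 9 on histone H3, was profiled by ChIP-Seq in aorta macrophages of C57BL/6J mice exposed to chronic intermittent hypoxia (CIH) or room air (RA). The members are the 2 H3K9ac libraries among the 4 of the series, 1 for each exposure, with every row of the deposited list of differential H3K9ac peaks, 20943 in all. Exposures lasted 20 weeks. CIH mice breathed 6.1% oxygen for 90 seconds in alternation with 21% oxygen for 90 seconds over the 12 hours of daylight, and RA mice were kept at 21%. Cells from digested aortas were selected with magnetic beads for CD11b, an integrin that other myeloid cells and some lymphocytes carry as well as macrophages. No input library was used. How many animals stood behind each library was not given in the labels. Because each exposure had 1 library, no difference below has a replicate error, and each compares a CIH library with an RA library rather than the exposures. In the bulk chromatin of these cells, a change of the mark within a cell type and a change in the mix of cells cannot be told apart.

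Acetylation of H3K9 neutralises the charge of the histone tail and is found mainly on the nucleosomes around the start sites of active genes and on active enhancers. Acetyltransferases write the mark, histone deacetylases remove it, and bromodomain and YEATS domain proteins bind acetylated lysines. In macrophages the mark accompanies the induction of inflammatory genes. It is a correlate of activity and does not by itself measure transcription.

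Each peak was paired with genes, and given 1 count per library, in the study's supplementary list of well covered peaks. The copy held here has 742 of its 2932 rows, in the order of peak names, and covers 483 peaks, most of them on chromosomes 1, 2, 3, 4 and 19. All 483 matched the deposited list in name, position and direction. They were paired with 610 gene symbols, and 218 of them with more than 1 gene. A gene absent from the text may therefore stand in the rest of the list, and a gene that did not differ has no entry at all. Positions are in the mouse build mm9 unless another build is named. Ratios divide the CIH count by the RA count as if both libraries were equally deep, although the study gives a larger sequencing yield for the CIH library. Whether the counts were scaled for this was not stated. If they were not, every ratio is too high by one common factor. The brackets give 95% intervals by the exact Clopper-Pearson method. These cover counting error only, and the peaks had been called different from the same counts, so the intervals test nothing further.

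Some peaks lie directly on start sites, and sequences from a few of them are printed as examples. Lying inside a peak does not show that the printed bases themselves carried the mark. Below are the 150 bases that precede the start site of 6 genes, all of which were found base for base inside a peak. The sequences are RefSeq promoters of GRCm38.p6, 5′ to 3′ on the strand of the gene. Capitals mark matches on either strand to short motifs, here the CCAAT box (CCAAT), the GC box (GGGCGG), the AP-1 site (TGANTCA) and the antioxidant response element (TGACNNNGC). Focad, Txnip and Srxn1 lie in peaks with more counts in CIH, and Rin2, Banf1 and Prnp in peaks with more counts in RA.
Focad, chr4:88094480-88094629, + strand: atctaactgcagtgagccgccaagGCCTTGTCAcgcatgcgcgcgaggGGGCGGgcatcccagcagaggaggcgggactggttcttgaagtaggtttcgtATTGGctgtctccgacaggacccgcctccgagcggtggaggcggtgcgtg
Txnip, chr3:96557807-96557956, + strand: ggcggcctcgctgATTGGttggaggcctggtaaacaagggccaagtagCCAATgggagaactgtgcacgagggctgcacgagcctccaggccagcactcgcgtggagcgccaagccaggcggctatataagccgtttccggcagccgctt
Srxn1, chr2:152105374-152105523, + strand: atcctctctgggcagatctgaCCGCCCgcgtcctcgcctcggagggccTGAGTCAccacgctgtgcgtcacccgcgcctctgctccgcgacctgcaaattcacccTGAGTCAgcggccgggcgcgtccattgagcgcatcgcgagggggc
Rin2, chr2:145785966-145786115, + strand: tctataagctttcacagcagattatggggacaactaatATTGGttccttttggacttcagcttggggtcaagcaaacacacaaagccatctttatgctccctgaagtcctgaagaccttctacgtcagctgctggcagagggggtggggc
Banf1, chr19:5366877-5367026, - strand: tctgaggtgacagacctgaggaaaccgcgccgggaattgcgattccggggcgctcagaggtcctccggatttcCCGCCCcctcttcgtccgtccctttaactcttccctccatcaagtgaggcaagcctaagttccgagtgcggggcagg
Prnp, chr2:131909778-131909927, + strand: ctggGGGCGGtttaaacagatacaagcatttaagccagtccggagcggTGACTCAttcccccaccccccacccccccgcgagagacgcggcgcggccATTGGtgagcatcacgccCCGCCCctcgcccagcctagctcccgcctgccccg
CCAAT and GC boxes, common features of CpG-rich promoters, stand in sequences of both directions. Srxn1 and Prnp carry AP-1 matches, and their peaks differ in direction.

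In the deposited list 45.4% of the peaks favoured CIH and 54.6% favoured RA. The majority turned with width, since 67.1% of the deposited peaks at least 500 bp wide favoured CIH. Among the 483 peaks held with counts, 236 (48.9%) were higher in CIH while 247 (51.1%) were higher in RA, with a median ratio of 0.842 over all of them. A ratio of at least 1.5-fold towards CIH was reached by 176 peaks (36.4%) and the same towards RA by 154 (31.9%). Divided by the median ratio, 231 peaks reached this towards CIH and 87 towards RA. That median lies among the peaks higher in RA because these are the slight majority, so the division does not correct for depth. Past 2-fold stood 38 (7.87%) and 60 peaks (12.4%). The peaks of both directions came from different ranges of signal. Peaks higher in CIH had a median width of 1400 bp and peaks higher in RA one of 850 bp. Those higher in CIH held at least 365 counts in the CIH library, and those higher in RA held at least 154 in the RA library, since the best covered peaks had been chosen within each. Per kb of peak, the medians of those higher in CIH were 353 CIH counts against 218 RA counts. The medians of those higher in RA were 147 CIH counts against 245 RA counts. The RA library had medians per kb of 218 and 245 in these sets, and the CIH library had 353 and 147. Direction, the separate minimum counts and the widths shaped both sets, so these medians do not show which library changed.

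**Figure D1:**
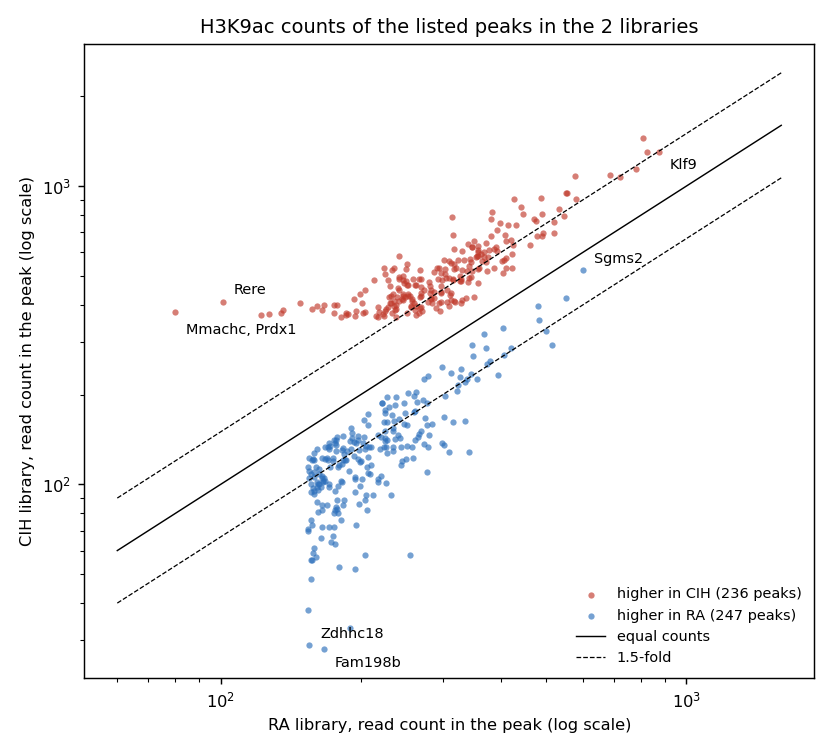
Read counts of the 483 listed H3K9ac peaks in the RA library (horizontal axis, log scale) and the CIH library (vertical axis, log scale), 1 point per peak, red for the 236 peaks higher in CIH and blue for the 247 higher in RA. The red points start at 365 CIH counts and the blue points at 154 RA counts, and named points show that the most extreme ratios, 4.72 and 0.168, stand near these lower limits while the highest counts have smaller ratios.

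The most extreme ratios towards CIH belonged to a short peak between Mmachc, a cobalamin processing enzyme, and the peroxiredoxin gene Prdx1. It held 378 CIH counts against 80 RA counts, a ratio of 4.72 (3.70 to 6.09). Next came a 950 bp peak of Rere, a nuclear receptor corepressor, with 410 CIH counts against 101 RA counts, a ratio of 4.06 (3.26 to 5.10). A peak beside Notch2, a receptor through which neighbouring cells signal, had 370 and 122 counts, a ratio of 3.03 (2.47 to 3.75). The ratio was 2.94 (2.40 to 3.62) at a peak paired with Ssr3, a subunit of the translocon-associated complex. Thbs3, a thrombospondin gene of the extracellular matrix, had 384 CIH counts against 136 RA counts, a ratio of 2.82 (2.32 to 3.46). Ddx20, an RNA helicase of the SMN complex that assembles spliceosomal particles, followed at 2.79 (2.28 to 3.42). Sh3pxd2a, a scaffold of podosomes, the matrix-degrading adhesions of macrophages, shared a peak of 2.74 (2.27 to 3.33) with Obfc1, which encodes a telomere binding protein. The remaining peaks among the 10 most extreme were those of Rab2a, Swt1 and Pmepa1, with ratios of 2.46 to 2.52. All 10 had between 370 and 790 counts in CIH, with the Rab2a peak alone above 410.

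Towards RA, the lowest ratio was that of the Fam198b peak, at 0.168 (0.108 to 0.251). A 650 bp peak paired with Hnrnpu, which encodes a nuclear scaffold RNA-binding protein, had 33 CIH counts against 190 RA counts, a ratio of 0.174 (0.116 to 0.252). Zdhhc18, a palmitoyltransferase gene, held 29 and 155 counts. Ampd1, which deaminates AMP, shared a peak of 38 and 154 counts with Dennd2c. Rnf114, a ubiquitin ligase gene, had 52 CIH counts against 194 RA counts, a ratio of 0.268 (0.193 to 0.366). The start site of Rin2, a Rab5 exchange factor that acts in endocytosis and whose promoter is printed above, lies inside a peak of 53 and 180 counts, a ratio of 0.294 (0.213 to 0.402). Lphn2, an adhesion G protein-coupled receptor gene, had 48 CIH counts against 156 RA counts. Hpcal4 and the spliceosomal cyclophilin gene Ppie shared a peak of 57 and 160. The other 2 of the 10 were the Dsn1 and Soga1 peak and a peak paired with the transcripts 1700057H21Rik and Gm13497. The CIH counts of these 10 peaks ran from 28 to 58 and their RA counts from 154 to 255.

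Genes were grouped by function into 25 lists. Their members were picked mostly from the paired gene symbols, with directions and earlier results known. A list's share is therefore read only against the 48.9% of all 483 peaks higher in CIH and the median ratio of 0.842. No held peak had a ratio between 0.872 and 1.21. A list's median crosses this gap when the majority of its peaks changes direction, so its distance from 0.842 adds little to the share. The plot of ratios by gene list shows that of the 23 lists with a peak, the interferon list alone held peaks of 1 direction. The lowest medians were those of the interferon, fibroblast and endoplasmic reticulum lists, and towards CIH, among lists with more than 10 peaks, the cytoskeletal list had the highest median.

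**Figure D2:**
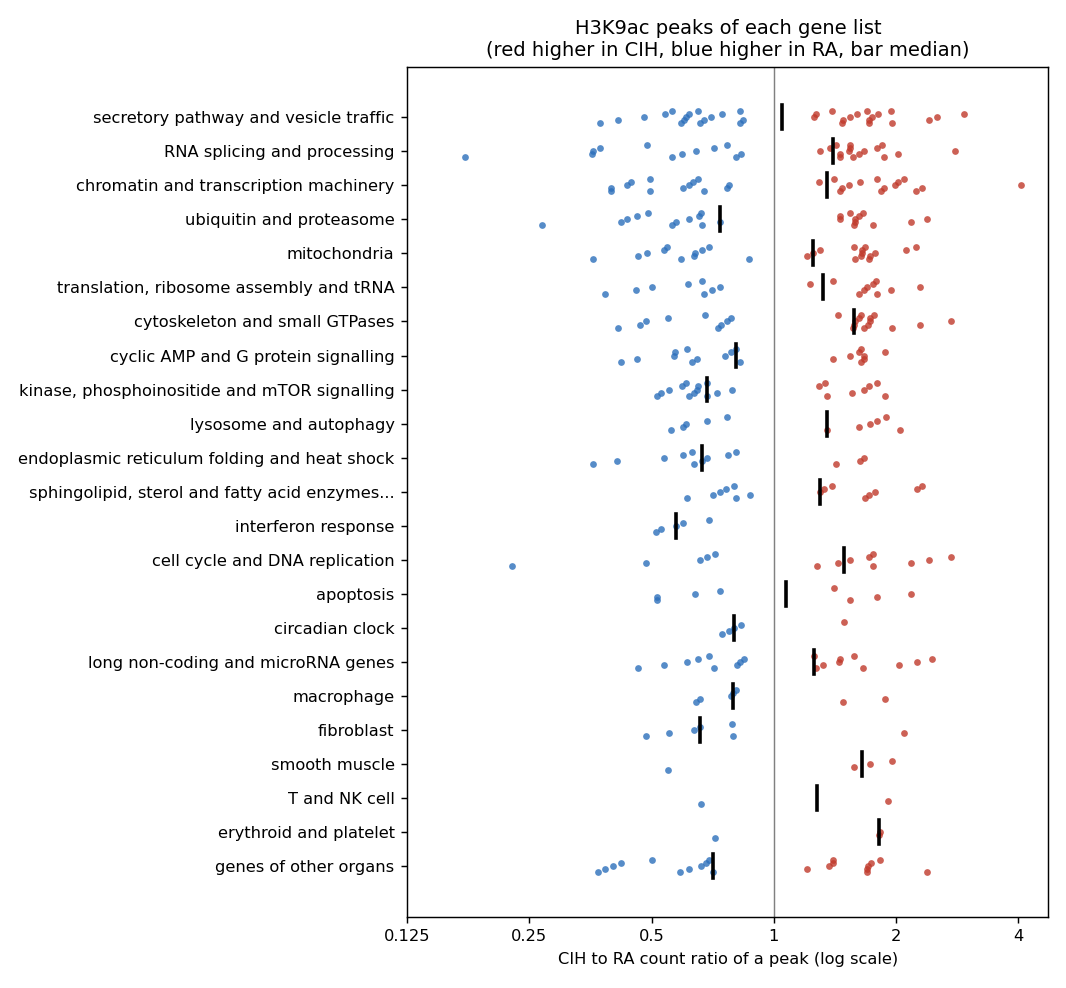
CIH to RA count ratio (horizontal axis, log scale) of each H3K9ac peak in the 23 gene lists that had any peak (vertical axis), red where CIH was higher, blue where RA was higher, with a black bar at the median of each list. The interferon list has no red point, with ratios of 0.513 to 0.692, while the secretory list has 17 points on either side of 1.

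Genes that act on chromatin and on transcription split evenly, with 15 of 28 peaks higher in CIH (53.6%) and a median ratio of 1.35. Ash1l, a methyltransferase of H3K36, had 490 CIH counts against 242 RA counts, a ratio of 2.02 (1.73 to 2.37). Prdm2, a methyltransferase of H3K9 also known as RIZ, had peaks of 526 and 250 counts and of 440 and 312. H3f3a, which encodes the replacement histone H3.3, shared a peak of 383 and 165 counts with Acbd3. Kdm4c, a demethylase of H3K9, had 757 CIH counts against 519 RA counts, a ratio of 1.46 (1.30 to 1.63). Arid1a, a subunit of the BAF remodelling complex, stood at 1.99 (1.67 to 2.38). Hat1, an acetyltransferase of newly made histone H4, had 441 and 288 counts. Tcea3, a gene of an elongation factor family, stood at 1.87 (1.64 to 2.13). Among peaks with more counts in RA, Ncoa3, a coactivator of nuclear receptors, had 82 CIH counts against 206 RA counts, a ratio of 0.398 (0.304 to 0.517). Taf4a, a subunit of TFIID, had 99 and 199, and the histone gene Hist2h2ab had 72 and 165. Ss18l1, another BAF subunit gene, had 101 and 227, a ratio of 0.445 (0.348 to 0.565). Both BAF subunit genes thus had peaks, in opposite directions. No values are given for the acetyltransferases Ep300 and Crebbp or the deacetylase Hdac1, which were on the list and had no peak in the part held.

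Splicing and RNA processing genes had 16 of 28 peaks higher in CIH (57.1%, median ratio 1.40). Tardbp, which encodes the RNA-binding protein TDP-43, had 908 CIH counts against 580 RA counts, a ratio of 1.57 (1.41 to 1.74). Pnisr, a gene of a nuclear speckle protein, had 699 and 493. Srrm1, a splicing coactivator, had 365 and 181, a ratio of 2.02 (1.68 to 2.42). Among peaks with more counts in RA were those of Aar2, a U5 particle assembly factor, with 128 and 342 counts, a ratio of 0.374 (0.303 to 0.460), and of Rbm12, with 56 and 156. Raly had 160 CIH counts against 285 RA counts, Ppig 160 and 248, and Prpf38b 162 and 228. The SR protein gene Srsf4 stood at 1.30 (1.12 to 1.51) and the larger peak of its relative Srsf6 at 0.831 (0.675 to 1.02), an interval that spans 1.

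Translation, ribosome assembly and tRNA genes had 10 of 18 peaks higher in CIH (55.6%, median ratio 1.32). Eif4e, which binds the mRNA cap, had 522 CIH counts against 268 RA counts, a ratio of 1.95 (1.68 to 2.27). Eef1g, a subunit of the elongation factor complex, shared a peak of 626 and 347 with Tut1. Ppp1r15b, which directs a phosphatase to eIF2α, shared one of 507 and 303 with Pik3c2b. Of the genes of ribosome assembly, Gnl2 had 80 and 175, Nmd3, the export adaptor of the large subunit, 147 and 218, and Mdn1 140 and 190. Esf1 had peaks of both directions, with 405 and 329 counts and with 225 and 338. Eif1ad had 67 CIH counts against 174 RA counts, a ratio of 0.385 (0.286 to 0.513). The diphthamide synthesis genes differed in direction, with Dph2 at 1.62 (1.38 to 1.91) and Dph5 at 0.706 (0.593 to 0.838).

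The secretory pathway had 34 peaks, 17 in each direction (median ratio 1.05). Sec62, a translocation factor, had 950 CIH counts against 551 RA counts, a ratio of 1.72 (1.55 to 1.92). Arfgef2, an exchange factor for Arf GTPases, had 713 and 393. Gorasp2, a Golgi stacking protein gene, had 613 and 357, Stx5a, a Golgi SNARE gene, 567 and 324, and the coat genes Sec24d and Copa 483 and 246, and 482 and 327. Ap4b1, of the AP-4 adaptor, stood at 2.41 (2.07 to 2.82). Coat and Golgi genes were found towards RA as well: Sec16a, of the sites where COPII coats form, stood at 0.828 (0.692 to 0.989), Arfrp1, a Golgi GTPase gene, at 0.590 (0.473 to 0.734), and another peak of Arfgef2 at 0.660 (0.535 to 0.811). More counts in RA were found at the Surf4 peak, a cargo receptor gene, with 134 and 279, a ratio of 0.480 (0.388 to 0.592). Vps45 had 187 and 277, Rpn2, a subunit of oligosaccharyltransferase, 144 and 221, and the SNARE genes Snap23 and Stx17 ratios of 0.600 to 0.699 and 0.609. The ESCRT genes went both ways: Chmp5 had ratios of 1.48 and 1.94, and Chmp4b of 0.561 and 0.619.

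For folding in the endoplasmic reticulum and heat shock, 3 of 13 peaks were higher in CIH (23.1%, median ratio 0.664). Tmx4, a membrane thioredoxin of the endoplasmic reticulum, had 63 CIH counts against 176 RA counts, a ratio of 0.358 (0.264 to 0.480). Hspa4l, of the Hsp110 family, had 72 and 175. Atf6, a sensor of unfolded proteins, shared a peak of 143 and 225 with Olfml2b, a ratio of 0.636 (0.512 to 0.787). The co-chaperone gene Dnaja1 had 269 and 348, the prefoldin gene Pfdn4 260 and 379, and the peaks of the oxidoreductase gene Txndc12 158 and 251, and 215 and 324. Higher in CIH were Pdia3, a disulphide isomerase gene, with 447 and 274, a ratio of 1.63 (1.40 to 1.90), Dnajb5 with 680 and 479, and the Ppp1r15b peak named above. Hspa5, Hsp90b1, Ddit3 and Xbp1 were listed but had no peak in the part held.

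Ubiquitin and proteasome genes had 11 of 23 peaks higher in CIH (47.8%, median ratio 0.736), close to the share of all peaks. Faf1, a ubiquitin-binding protein, shared with the cell cycle inhibitor Cdkn2c peaks of 688 and 316 counts, a ratio of 2.18 (1.90 to 2.50), and of 521 and 338. Fbxw4 stood at 2.39 (1.99 to 2.88) and Dcaf8 at 1.58 (1.41 to 1.76). Psma5, a proteasome core subunit, had 86 CIH counts against 198 RA counts, a ratio of 0.434 (0.333 to 0.562). Uchl5, a deubiquitinase of the proteasome, had 71 and 154, and Klhl12, a cullin 3 adaptor, 72 and 171. Lysosome and autophagy genes had 6 of 11 peaks higher in CIH (54.5%, median ratio 1.35). Arl8a, a GTPase that moves lysosomes, had 778 CIH counts against 380 RA counts, a ratio of 2.05 (1.81 to 2.32). The lysosomal GTPase gene Rraga, whose product recruits mTORC1, had 487 and 270, and its partner Rragc 391 and 290. Atg2a, a lipid transfer protein of autophagosomes, had 151 and 270, a ratio of 0.559 (0.455 to 0.685), and the intramembrane protease gene Sppl2a 98 and 164.

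Among mitochondrial genes 14 of 25 peaks were higher in CIH (56.0%, median ratio 1.25). Coa7, an assembly factor of respiratory complexes, had 525 CIH counts against 234 RA counts, a ratio of 2.24 (1.92 to 2.63). Cox20, an assembly factor of cytochrome oxidase, had 1087 and 686, and Ndufs5, a complex I subunit, 584 and 357. Ckmt1, a mitochondrial creatine kinase, stood at 2.12 (1.81 to 2.49). Decr1, of fatty acid oxidation, shared a peak of 739 and 415 counts with Nbn, and the pyrimidine carrier gene Slc25a33 had 643 and 372. Genes of iron-sulphur clusters went both ways. Nfs1, the cysteine desulphurase that supplies their sulphur, shared a peak of 56 and 156 counts with Rbm12, a ratio of 0.359 (0.260 to 0.490). Cisd2, which carries such a cluster, had 584 and 355. Of the mitochondrial ribosome, Mrpl37 stood at 0.464 (0.355 to 0.604), Mrpl50 at 0.870 (0.746 to 1.01) and Mrpl24 at 1.59 (1.38 to 1.83).

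Cytoskeletal and small GTPase genes had 14 of 23 peaks higher in CIH (60.9%, median ratio 1.58). Of the 23 peaks, 56.5% were past 1.5-fold towards CIH against 36.4% of all peaks, and 17.4% towards RA against 31.9%. Of the 8 peaks paired with a single gene, 4 were higher in CIH. Vim, which encodes vimentin, shared a peak of 401 and 175 counts with Trdmt1, a ratio of 2.29 (1.91 to 2.75). Tagln2 had 661 CIH counts against 420 RA counts, the spectraplakin gene Macf1 584 and 357, and Tmod1, which caps actin filaments, 553 and 313. Arhgef2, an exchange factor for RhoA bound to microtubules, had 128 and 310, a ratio of 0.413 (0.333 to 0.509). The formin gene Fmn1 had 94 and 194. Rhoc had 422 CIH counts against 551 RA counts, and Rnd3 234 and 345, both of them small GTPase genes.

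Cyclic AMP and G protein genes had 8 of 19 peaks higher in CIH (42.1%, median ratio 0.807). Without touching peaks the share was 61.5%, against 56.2% of all held peaks that touch no other, so its side of the background turned. Prkacb, a catalytic subunit of protein kinase A, had 294 CIH counts against 516 RA counts, a ratio of 0.570 (0.492 to 0.659). Pkia, an inhibitor of that kinase, had 105 and 167, and Rapgef4, another cyclic AMP sensor, 103 and 181. Rgs2, which turns off G protein signals, shared with Uchl5 the peak of ratio 0.461 (0.343 to 0.615). Cnr2, the cannabinoid receptor of immune cells, shared a peak of 915 and 488 counts with Pnrc2, a ratio of 1.88 (1.68 to 2.10). Akap2, which anchors protein kinase A, had 603 and 367, and Gnb1 373 and 223. Pde4b, the phosphodiesterase that limits cyclic AMP in macrophages, had 3 peaks towards CIH and 1 towards RA.

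In the kinase, phosphoinositide and mTOR list 8 of 21 peaks were higher in CIH (38.1%, median ratio 0.685). This share turned too, to 58.3% of 12 peaks, when touching peaks were left out. Itpkb, an inositol trisphosphate kinase, had 567 CIH counts against 302 RA counts, a ratio of 1.88 (1.63 to 2.17). Ptpn1, a tyrosine phosphatase, had 697 and 521, and Mapkapk2, the p38 target that stabilises cytokine mRNAs, 530 and 410. Jak1 had 109 and 207, a ratio of 0.527 (0.414 to 0.667). Both peaks of Prr5l, an mTORC2 component, were higher in RA, with 133 and 258, and 114 and 206. Pi4kb had 167 CIH counts against 275 RA counts, Tiprl, a PP2A regulator, 226 and 356, and the adaptor gene Pik3ap1 162 and 224.

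No peak of the interferon list was higher in CIH, against 48.9% of all peaks. The 5 peaks, paired with 6 of the list's 11 genes, all had more counts in RA, with a median ratio of 0.573. The number of peaks is small and the list was drawn up with directions known, which limits what the count shows. Isg15, the ubiquitin-like modifier made in response to interferon, had 162 CIH counts against 316 RA counts, a ratio of 0.513 (0.422 to 0.622). Ube2l6, the enzyme that conjugates it, and the complement inhibitor gene Serping1 shared a peak of 98 and 171, a ratio of 0.573 (0.442 to 0.739). Tor3a had 119 and 199, and Isg20l2 shared with Rrnad1 a peak of 110 and 159. Whether each listed gene, Isg20l2 among them, responds to interferon in these cells was not examined. Jak1, named above, transmits the signal of the interferon receptors. Irf1, Irf7, Mx1 and Ifit1 had no peak in the part held.

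Lipid genes had 8 of 15 peaks higher in CIH (53.3%, median ratio 1.30), and 2 of the 7 that touch no other peak (28.6%). Cyp51, of sterol synthesis, shared with Mterf1b a peak of 393 CIH counts against 229 RA counts. Of the sphingolipid enzymes, Cers2 had 141 and 177, and Sgms2, a sphingomyelin synthase, 523 and 600. The Sgms2 ratio of 0.872 (0.774 to 0.982) was the nearest to 1 of the peaks higher in RA.

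Cell cycle and replication genes had 9 of 14 peaks higher in CIH (64.3%, median ratio 1.49). Dclre1b, a nuclease of telomeres, had 584 CIH counts against 242 RA counts at the peak shared with Ap4b1 and 435 and 247 at another. Mcm8, a helicase gene, had 406 and 231. The cohesin gene Smc3 stood at 0.685 (0.542 to 0.864) and Cse1l, a nuclear export factor, at 0.660 (0.535 to 0.811). Apoptosis genes had 4 of 8 peaks in each direction (median ratio 1.07). Bcl2l11, which encodes the death inducer BIM, had 108 and 209 counts, a ratio of 0.517 (0.406 to 0.655), and Dab2ip 85 and 165. Pea15a, which inhibits death receptor signals, had 530 and 294. Of the clock list, 1 of 5 peaks was higher in CIH (20.0%, median ratio 0.798), and no peak was past 1.5-fold. Cry2, a repressor of the clock, had 204 CIH counts against 263 RA counts, and Ccrn4l, which encodes nocturnin, 335 and 404, while Klf9 had peaks of both directions.

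Peaks were paired with 3 microRNA genes and with the host transcript of another. Mir760 shared with Dnttip2 a 2000 bp peak of 484 CIH counts against 214 RA counts, a ratio of 2.26 (1.92 to 2.67). Mir34a shared with Gpr157 a peak of 100 and 163, a ratio of 0.613 (0.473 to 0.792), and the start site of Gpr157 lies 461 bp into it. Mir129-2 had peaks of 226 and 274, and 131 and 161. Pairing was by position, and whether any of these peaks covers a microRNA gene was not examined. Mir124-2hg had 138 and 299, a ratio of 0.462 (0.374 to 0.567). The mature sequences of the 3 microRNA genes, from RefSeq, have their seeds (bases 2 to 8) in capitals and show that none of the 6 shares a seed with another.
mmu-miR-760-3p: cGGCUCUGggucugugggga
mmu-miR-760-5p: cCCCUCAGgccaccagagcccgg
mmu-miR-34a-5p: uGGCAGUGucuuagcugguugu
mmu-miR-34a-3p: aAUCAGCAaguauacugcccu
mmu-miR-129-5p: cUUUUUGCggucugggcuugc
mmu-miR-129-2-3p: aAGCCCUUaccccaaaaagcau
ChIP-Seq counts at a peak say nothing of the level of the mature microRNA. Among long non-coding RNAs, Neat1, the scaffold of paraspeckles, had 3 peaks, all higher in CIH. Of these, only the peak of 794 and 547 counts was not also paired with Malat1. Gas5, the host of small nucleolar RNAs, had a peak of 198 and 304 counts. Of the 19 peaks of the list of non-coding genes, 10 were higher in CIH (52.6%, median ratio 1.26), a share that was 25.0% of the 4 peaks paired with a single gene and 83.3% of those touching no other peak.

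Markers of cell types were looked at to see which cells the libraries could hold, although the lists show only peaks that differed. Of 15 macrophage genes, 7 had a peak in the part held, 5 higher in RA and 2 in CIH (median ratio 0.794). The share higher in CIH was 28.6%, against 48.9% of all held peaks, and so few peaks limit what it shows. Fcgr3, an Fc receptor gene, shared with 1700009P17Rik a peak of 117 CIH counts against 182 RA counts, in which the start site of Cfap126 lies. Mertk, a receptor for apoptotic cells, had 123 and 155. Ptafr, the receptor of platelet activating factor, shared a peak of 138 and 171 with Dnajc8, and the intervals of both genes spanned 1. Fgr, a Src family kinase gene of myeloid cells, shared with Fam76a a peak of 419 and 283, a ratio of 1.48 (1.27 to 1.73). Cnr2, named above, had the highest counts of the macrophage list, 915 and 488 at the peak shared with Pnrc2, a ratio of 1.88 (1.68 to 2.10). Adgre1, Csf1r, Cd68 and Itgam had no peak there, so the label of the cells could not be checked on them. Of 12 fibroblast genes, 6 had peaks, with 1 of 7 peaks higher in CIH (14.3%, median ratio 0.657). Postn, which encodes periostin, had peaks of 89 and 184, and 145 and 183. Col5a1 shared a peak of 99 and 179 with Rxra, Prrx2 one of 114 and 179 with Asb6, and Col15a1 one of 182 and 230 with Tgfbr1. Pdpn shared with Prdm2 the peak of 2.10 (1.81 to 2.46). A shared peak is paired with the marker by position only. Col1a1, Col1a2, Col3a1, Dcn, Lum and Pdgfra had no peak. Smooth muscle genes were represented by Cnn3 and Synpo2 only, with Acta2, Myh11 and Tagln absent, and 3 of their 4 peaks were higher in CIH (median ratio 1.65). The Cnn3 peaks were shared with Alg14. Cd6 stood at 1.91 (1.63 to 2.23) and Cd160 at 0.663 (0.515 to 0.850) in the list of T and NK cells. Hemgn at 1.82 (1.58 to 2.11), Rhd at 1.83 (1.60 to 2.10) and Gfi1b at 0.716 (0.572 to 0.893) stood for erythroid cells and platelets. The Hemgn peak was shared with 5830415F09Rik. Endothelial and B cell genes had none. The part that the mix of cells plays in any of these ratios was not tested.

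Genes known mainly from other organs also carried differential peaks. Among 21 peaks of such genes, 10 were higher in CIH (47.6%, median ratio 0.709), and 5 of the 8 paired with a single gene (62.5%). The intestinal gene Sis, which encodes sucrase-isomaltase, had 64 CIH counts against 173 RA counts, a ratio of 0.370 (0.273 to 0.496). Mylk2, of skeletal muscle, had 66 and 164, the germ line gene Tdrd1 61 and 159, and Hnf4a, of liver and gut, 76 and 181. Higher in CIH were the peaks of Fgf8, a growth factor of the embryo, at 2.39 (1.99 to 2.88), and Nr5a1, of steroid-making glands, at 1.70 (1.45 to 1.99). Several of these peaks were paired with another gene as well, and a pairing by position does not show that the named gene uses the peak.

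Peaks of opposite direction met at the same gene 46 times. The 46 symbols stood for 34 distinct pairs of peaks, taken as the nearest opposite peaks of each gene. The peaks touched in 11 pairs, lay up to 10 kb apart in 6 and farther in 17, with a largest gap of 223050 bp. In 28 of the 34 pairs the peak higher in CIH was the wider, as held peaks of that direction were in general (medians of 1400 against 850 bp). The touching pairs are bound to differ in direction, as none of the 4157 touching pairs of the whole deposited list had the same direction. At Btaf1, which encodes a remover of the TATA-binding protein, a peak of 506 and 226 counts over the start site touched one of 92 and 232, so that the ratio went from 2.24 (1.91 to 2.63) to 0.397 (0.308 to 0.507) across adjoining peaks of 950 and 800 bp. Extl2 and Slc30a7, a zinc transporter gene, had 527 and 358 counts beside 80 and 179. Ube2j1, a ubiquitin-conjugating enzyme of the endoplasmic reticulum, had 390 and 268 beside 106 and 159. Wars2, Arl5b, Thnsl1 and Jun showed the same arrangement. At Mef2d, a transcription factor gene shared with Iqgap3, the peaks stood 4000 bp apart, with 948 and 554 counts and with 102 and 218. Rnf114 had 428 and 269 counts 5850 bp from its peak of ratio 0.268. The splicing factor gene Rbm39 held 637 and 462 counts at a 1950 bp peak and 122 and 250 at a 450 bp peak that includes its start site.

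**Figure D3:**
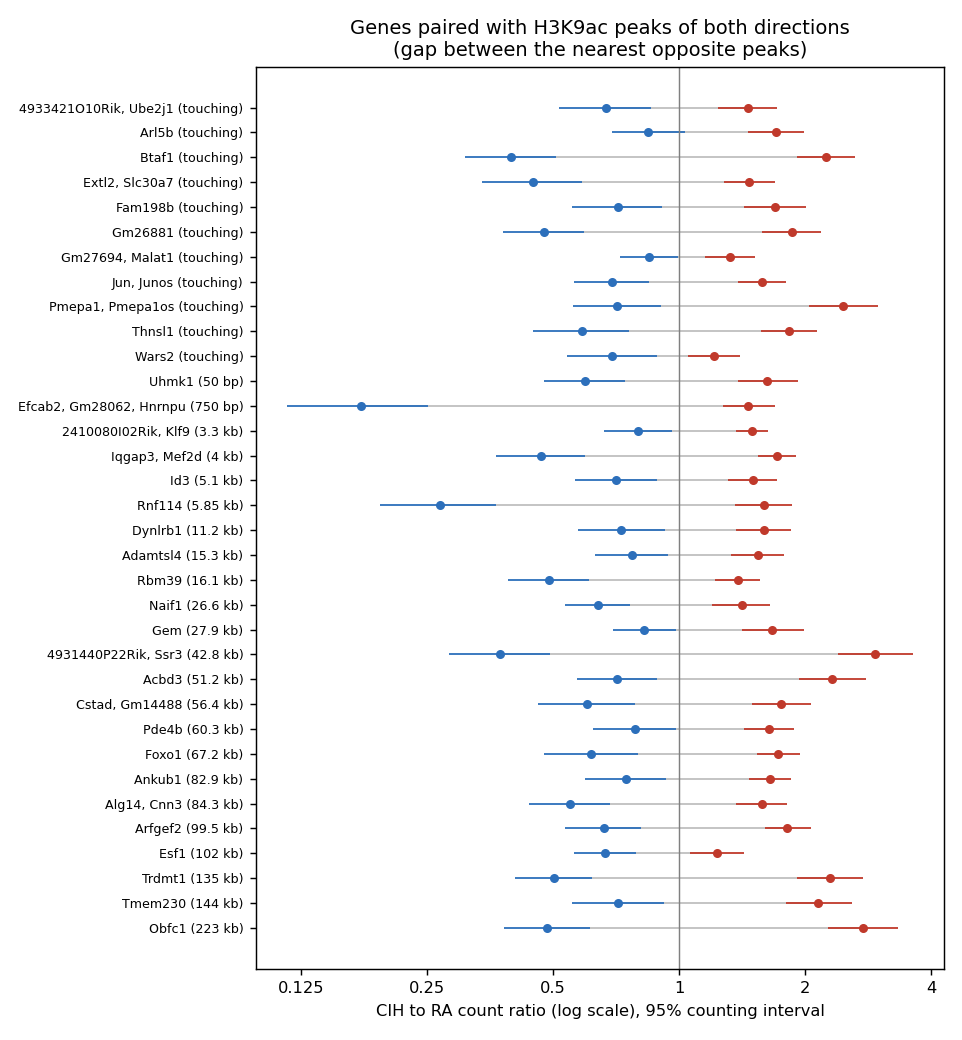
CIH to RA count ratio (horizontal axis, log scale) of the nearest pair of opposite H3K9ac peaks at each gene (vertical axis), red for the peak higher in CIH and blue for the peak higher in RA, with 95% exact counting intervals and the gap between the peaks in brackets. The pairs are ordered by gap, from 11 that touch to the Obfc1 pair at 223 kb, and the widest spread of ratios is at Hnrnpu, 1.46 against 0.174.

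Near neighbours of the other direction were common for peaks higher in RA. Of the 247 held, 58.3% had a deposited peak higher in CIH within 10 kb, against 39.6% of all deposited peaks higher in RA. Of the 236 held that were higher in CIH, 40.3% had a peak higher in RA within 10 kb, against 49.6% of all deposited peaks of that direction. Held peaks of both directions touched another peak in 48.6% (RA) and 30.9% (CIH) of cases, against 32.3% and 40.8% in the whole list. The arrangement differed from gene to gene. At Hnrnpu, 4 peaks of alternating direction began within 1400 bp, the outer ones with 33 and 190 counts and with 481 and 329, and another counted peak of 685 and 409 stood 33150 bp from the first. Malat1, a nuclear RNA of speckles, had 293 and 346 counts in a 600 bp peak that touched one of 473 and 357, and 1142 and 781 in a 2100 bp peak that starts 7650 bp from the first. Neat1 lies next to it, and its own peak at the far end had 794 and 547. Foxo1, a transcription factor restrained by insulin signals, had 740 and 430 counts in a 2800 bp peak, a ratio of 1.72 (1.53 to 1.94). Its other counted peaks, 70050 and 203950 bp farther along, had 100 and 162 and 138 and 202. Pde4b began with a peak of 138 and 176, a ratio of 0.784 (0.623 to 0.985), followed by peaks of 579 and 353, 574 and 411, and 487 and 316. Klf9 had 1299 and 872 counts in a 4150 bp peak and 202 and 253 in a 600 bp peak 3300 bp away. Btg2, an antiproliferative gene, had 3 counted peaks and another deposited one, all higher in CIH, with ratios of 1.65 to 1.87.

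**Figure D4:**
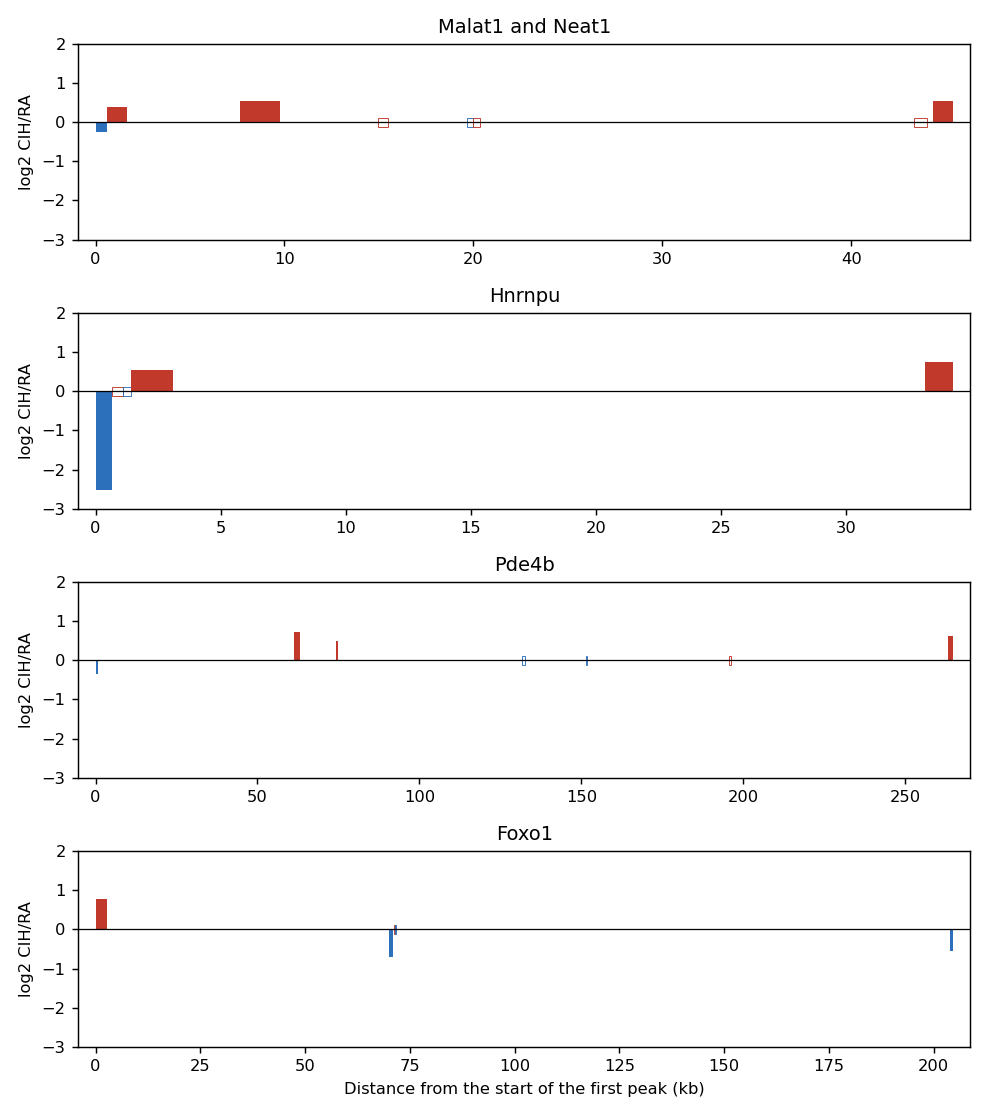
Deposited H3K9ac peaks along 4 loci, with the distance from the start of the first peak in kb (horizontal axis) and the log2 ratio of CIH to RA counts (vertical axis). Filled bars are peaks with counts, open boxes on the zero line are deposited peaks without counts here, red is higher in CIH and blue higher in RA, and bar widths are to scale, so the narrowest boxes show little but their outline. Malat1 and Neat1 have 3 filled red bars and 1 blue, Hnrnpu alternates, Pde4b has 3 red and 1 blue, and Foxo1 has 1 red and 2 blue.

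Pairing by sequence placed some peaks on genes the list did not name. RefSeq promoter windows of 300 bases (250 before to 50 after the start) shared an exact run of at least 50 bases with 124 of the 483 peaks, 62 in each direction (26.3% of the CIH set, 25.1% of the RA set). As only about the first 399 bases of each peak are held, a peak without a match may still hold a start site. Of 139 matches, 102 were to a gene named for the peak and 37 were to another gene. Among the latter with more counts in CIH was Srxn1, sulphiredoxin, which restores oxidised peroxiredoxins and whose promoter is printed above. Its start site lies 259 bp into a peak paired with the neuronal gene Scrt2, with 369 CIH counts against 263 RA counts, a ratio of 1.40 (1.19 to 1.65). The start site of Creg1, a lysosomal glycoprotein, lies in a peak paired with Rcsd1, with 448 and 204 counts, a ratio of 2.20 (1.86 to 2.60). Tpr, of the nuclear pore basket, had 593 and 362, and the chromatin remodeller gene Ino80 405 and 285. The mitochondrial protease gene Yme1l1 lies in the Mastl peak of 409 and 319 counts.

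Towards RA, the start site of B2m, the light chain of class I histocompatibility molecules and itself induced by interferon, lies in a peak paired with Patl2. It held 198 CIH counts against 260 RA counts, a ratio of 0.762 (0.630 to 0.920). Tsc1, whose product restrains mTORC1, starts within the 300 bp peak paired with Gfi1b, with 141 and 197 counts, so that peak holds the start of a widely used gene besides the erythroid one it was named for. The prion protein gene Prnp starts in a peak of 168 and 302, a ratio of 0.556 (0.458 to 0.674). Psma7, a proteasome core subunit like Psma5, starts in the Ss18l1 peak of 101 and 227, and Psmd5, a proteasome assembly factor, in one of 108 and 156. Banf1, which links chromatin to the nuclear lamina, and Eif1ad start 125 and 62 bp into the same peak, on opposite strands, with 67 and 174 counts. Camk2d had 357 and 484, Clk2, a kinase of splicing factors, 243 and 329, and Rbm18 shared with Mrrf a peak of 135 and 251. The Isg15 peak matched the promoter of its antisense neighbour AW011738 rather than that of Isg15, within the bases held. Promoters of named genes included Txnip, an inhibitor of thioredoxin and of glucose uptake, with 854 CIH counts against 441 RA counts, a ratio of 1.94 (1.72 to 2.18), and Focad with 435 and 199. Pank2, which starts coenzyme A synthesis, had 369 and 186. Where the start site itself was in the peak, the peaks reached a median of 932 bp downstream of it when higher in CIH (58 start sites) and 521 bp when higher in RA (68), and a median of 429 and 322 bp upstream. These peaks had median widths of 1350 and 900 bp, so the reach differed along with the width. Start sites could be found only near the low-coordinate end of a peak, where its bases were held. This limits the reach upstream for genes on the + strand and downstream for genes on the - strand. The reach on either side was therefore set in part by the search.

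Short motifs were searched in the first 399 bases on both strands, for 235 of the CIH set and 240 of the RA set. Shares of peaks were compared side by side without a test. With median widths of 1400 bp (CIH) and 850 bp (RA), these bases cover a smaller part of a typical peak higher in CIH. The CCAAT box was found in 41.3% of peaks higher in CIH (34.9 to 47.9%) and 39.6% of those higher in RA (33.4 to 46.1%), and the GC box in 34.0% and 36.2%. The hypoxia response element, searched as NACGTGC, stood in 12.3% (8.42 to 17.2%) and 7.50% (4.51 to 11.6%), against 5.91% of RefSeq promoter windows, which are shorter at 300 bases. The antioxidant response element (TGACNNNGC) stood in 15.3% (11.0 to 20.6%) and 10.8% (7.20 to 15.5%), against 12.4% of windows. AP-1 (TGANTCA) had 11.1% and 8.75%, the E-box (CACGTG), whose letters overlap the hypoxia element, 10.2% and 7.92%, and the cyclic AMP element (TGACGTCA) 0.851% and 2.50%. The ETS motif (CCGGAAGT), the PU.1 motif (GAGGAAGT) and an NF-kB motif were each in under 3% of the peaks of either direction. For each of the 10 motifs the intervals of the 2 directions overlapped. The held bases had a median GC content of 51.2% for the CIH direction and 53.6% for the RA direction, with medians of 3.26 and 4.01 CpG per 100 bases.

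**Figure D5:**
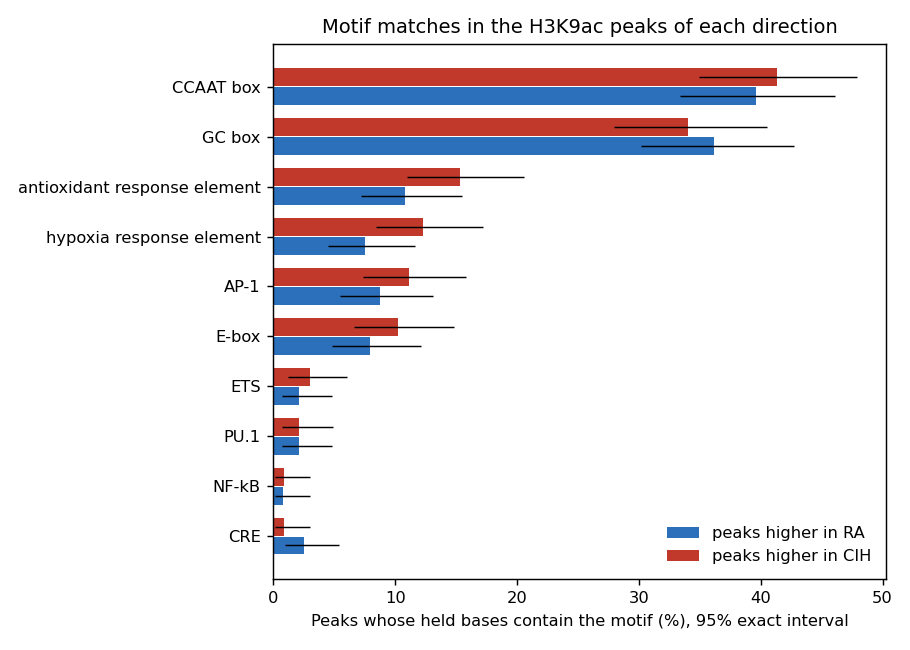
Share of H3K9ac peaks whose first 399 bases hold each of 10 motifs on either strand (horizontal axis, %, with 95% exact intervals), red for the 235 peaks higher in CIH and blue for the 240 higher in RA. The intervals of both directions overlap at every motif, and the CCAAT and GC boxes are in more than 30% of the peaks while the PU.1, NF-kB and cyclic AMP motifs are in under 3%.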

How the data were processed

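ChIP-Seq for H3K9ac was performed on CD11b-selected aorta macrophages, with 1 library each from CIH and RA mice. Tools named in the submitters' processing notes were BWA 0.7.12, MACS2 2.1.0, Trimmomatic 0.32, Picard 1.121, bedtools 2.23.0 and SAMtools 1.2. Those notes give the build as mm9. The deposited list gives each differential peak with a position in steps of 50 bp, a sign and a score, which the authors set to 1000 in every row. Counts per peak, gene pairings and the first bases of each peak came from the study's supplementary list of selected peaks, of which 742 of 2932 rows were held, and 6 rows named no gene. The study states a sequencing yield for each library, larger for CIH than for RA. Mapped reads per library and any scaling of these counts are not given in the sources used here, and the ratios were not corrected for yield. Such a correction would lower every ratio by the same factor, whereas division by the median ratio raises them. If a fragment was counted in several windows, the intervals are too narrow. The p-values of that list were not used.

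Ratios, exact intervals, gene lists, sequence matches and motif shares were computed with Python 3.11.15, numpy 2.4.6, pandas 2.3.3 and scipy 1.17.1, after being tested on simulated data. With 1 library per exposure no test was run, and called means past a fold of 1.5. Of the 610 symbols, 565 were found in RefSeq and 26 more by an older name. Promoter windows that matched a peak of another chromosome or more than 2 peaks, from 7 genes, were left out as repeats. Peaks were named if among the 10 most extreme ratios of each direction, if paired with a gene that had peaks of both directions, or if paired with a list member, with values for up to 4 members per direction by summed counts and those past 2-fold. Other members and promoter matches were picked for their function after their values had been seen. The members and lists were chosen with earlier results of these data known. Values of a few list members were left out of the text.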

Additional observations from a re-analysis of the deposited data

How the results depend on the processing

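Of 120 recomputed values, 92 stayed within 1.5 times a count or within the 95% interval of a share. For lists of few peaks that interval is wide, and 24 of 92 recomputed list shares changed sides of the share of all held peaks under the same choice. That share was 50.6% with peaks paired with 1 gene, 56.2% without touching peaks, 60.7% with at least 300 counts and 50.1% after division by the median ratio. The sides changed for 10 of the 23 lists with peaks paired with 1 gene, for 6 without touching peaks, for 6 with at least 300 counts and for 2 with the division. Over the 483 peaks, the 176 and 154 past 1.5-fold became 38 (CIH) and 60 (RA) at 2-fold. They became 231 (CIH) and 87 (RA) when ratios were divided by their median of 0.842. That median is set by which direction has more held peaks, so these counts show no lean of the libraries. With at least 300 counts in both libraries together, the numbers past 1.5-fold were 176 and 79. As every peak higher in CIH had at least 365 CIH counts, that minimum removed peaks higher in RA alone, so higher shares under it follow from its construction. Division by the median turned the direction of 4 peaks higher in RA and of 0 higher in CIH. The peaks of 187 and 222 counts (Arl5b, and Nt5c2 with Ina) came to a ratio of 1.00. They are not among the 4 but count as higher in CIH in the 50.1%, which is 242 of 483 peaks. Division by the median leaves nearly equal numbers on either side, so this share follows from its construction. Of deposited peaks at least 500 bp wide, 67.1% were higher in CIH, and of those touching no other peak 42.1%. With only peaks paired with 1 gene, the share higher in CIH was 100% for the cell cycle and smooth muscle lists, 0% for the clock, macrophage and fibroblast lists, and 25.0% for non-coding genes. Without touching peaks it was 83.3% for non-coding genes and 100% for T and NK cells, and with at least 300 counts 100% for T and NK cells, 71.4% for genes of other organs and 68.8% for ubiquitin genes, against 60.7% of all such peaks. These lists then held fewer peaks. Each T and NK cell share rested on 1 peak, as did the clock and smooth muscle shares with peaks paired with 1 gene. Under that choice the macrophage and fibroblast shares rested on 2 peaks each and the cell cycle share on 3. In the first 250 bases the motif shares (CIH, then RA) were 28.5% and 25.4% for the CCAAT box, 23.8% and 26.7% for the GC box, 5.53% and 3.75% for AP-1, 4.26% and 3.75% for the E-box, 7.23% and 3.75% for the hypoxia element, and 10.2% and 6.67% for the antioxidant element, a shorter window holding fewer matches. No paired analysis was possible because each exposure had 1 library. For the same reason no library could be left out. The number of mapped reads behind each library was unknown and limits every ratio.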
